A study of Mus musculus with 8 samples.

Results

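The AP-1 and EGR immediate early genes were taken as a list of 10 named genes: Fos, Fosb, Fosl1 and Fosl2 of the FOS family, Jun, Junb and Jund of the JUN family, Egr1 and Egr2 of the early growth response family, and the immediate early response gene Ier2. They were 10 of the 27179 genes in the table and 10 of the 14382 that had enough reads to be tested. Their levels were measured by RNA sequencing in 8 whole primary tumours of BALB/c mice. The tumours grew from 4T1.13 cells, a metastatic mouse mammary carcinoma line, of which 100000 were placed in the mammary fat pad, and the labels give day 14 for the sampling. In the miR-21-KD group (4 tumours, also called knockdown tumours) the injected cells carried the lentiviral miArrest vector, in which the H1 promoter drives an RNA that sequesters mature miR-21, together with mCherry and hygromycin resistance. In the vector control group (VC, 4 tumours) the same vector carried a scrambled sequence. Each line was a pool of clones, and the vector is present only in the injected cells, so the host cells of a tumour carry neither sequence in both groups. The study describes the 4 tumours of a group as biological replicates, and its methods place the recovery of the tumours on an earlier day than the labels do.

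FOS and JUN proteins are basic leucine zipper (bZIP) factors that pair with each other to form AP-1, which binds the sequence TGANTCA in the control regions of its target genes. The genes are called immediate early because growth factors, cytokines and stress raise their transcripts within minutes without new protein synthesis, through the MAP kinases and the nuclear factors SRF, ELK and CREB. JUN is a strong activator, JUNB and JUND are often weaker ones or antagonists of JUN, and FOSL1 and FOSL2 lack the strong activation domain of FOS and FOSB. EGR1 and EGR2 are zinc finger factors induced by the same signals, and they are known for growth control in epithelium and, in the case of EGR2, for roles in macrophages and T cells.

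Between 12134849 and 13592695 reads were counted per VC tumour and between 12550898 and 12783800 per miR-21-KD tumour, so that a count of 0 allows a level of up to 0.221 to 0.245 CPM (reads of a gene per 10 to the sixth power of counted reads, scaled between tumours by TMM), for counting error only. The precursor Mir21a had 0 reads in all 8 tumours and gives no check of the knockdown. Over all genes, 5626 of 14382 (39.1%) passed the quasi-likelihood test of edgeR at an adjusted p under 0.05, of which 2826 rose (19.6%) and 2800 fell (19.5%) with the knockdown. The groups did not overlap for 35.2% of tested genes. Markers of several cell types moved with the group. The summed level of 12 fibroblast and pericyte markers was 3711 to 9261 CPM in VC and 11500 to 25405 CPM in knockdown tumours, and 10 of the 12 rose. The sum of 12 macrophage and monocyte markers was 3912 to 5873 CPM against 7978 to 12863 CPM, and 9 of the 12 rose. T cell markers (7 of 12 rose) summed to 193 to 434 CPM against 473 to 847 CPM, and adipocyte markers (8 of 8 rose) to 116 to 281 CPM against 439 to 1250 CPM. The T cell list shares Thy1 with the fibroblast list, and without it the T cell sums were 59.4 to 236 CPM against 196 to 440 CPM and overlapped. Of 12 epithelial markers 9 rose and 1 fell, while their sums, 1316 to 2283 CPM and 1029 to 2111 CPM, overlapped. The gene that fell, Krt18 (means 1022 and 460 CPM), and Krt8 (808 and 439 CPM, not called) had the highest means of the list in both groups. The median log2 fold change of the list was 1.725. Neutrophil markers (2 of 9 tested rose) summed to 342 to 910 CPM against 535 to 792 CPM, endothelial markers (1 of 10 rose and 1 fell) to 697 to 992 CPM against 839 to 1096 CPM, and B cell markers (none of 4 tested passed) to 2.23 to 166 CPM against 9.82 to 89.2 CPM. The high B cell sums were those of VC 4 (166 CPM) and miR-21-KD 4 (89.2 CPM), and every other tumour was between 2.23 and 14.8 CPM. Skeletal muscle markers (1 of 4 tested rose and 1 fell) summed to between 7.05 and 13.5 CPM in every tumour. The epithelial, fibroblast, macrophage and endothelial lists were all present in every tumour, as labelled for mammary tumours. The part of these cell types in the results below was not tested, and in whole tumours fewer cells of a type and less RNA per cell cannot be told apart.

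The RNA that the knockdown sequesters is shown first, with its seed (bases 2 to 8) in capitals. RefSeq places the mature mouse miR-21a-5p at chr11:86584120-86584141 of GRCm38.p6, on the minus strand.
mmu-miR-21a-5p: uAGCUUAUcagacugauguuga

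The start regions of members that lie on different sides of the test are shown because these genes are known through such regions: 150 bases before to 50 bases after the RefSeq start on GRCm38.p6. Capitals mark the letters TGACG (the first part of the CREB site) or its reverse complement CGTCA, the letters TATAAA of the TATA box, the letters TGACATCA, known as the site in the Jun promoter to which JUN and ATF2 bind, and the CArG box of SRF. The regions lie at chr8:84978699-84978898 (minus strand) for Junb, chr5:32136322-32136521 (plus strand) for Fosl2, chr4:95052173-95052372 (minus strand) for Jun, chr12:85473740-85473939 (plus strand) for Fos and chr10:67537719-67537918 (plus strand) for the third of the listed starts of Egr2.
Junb: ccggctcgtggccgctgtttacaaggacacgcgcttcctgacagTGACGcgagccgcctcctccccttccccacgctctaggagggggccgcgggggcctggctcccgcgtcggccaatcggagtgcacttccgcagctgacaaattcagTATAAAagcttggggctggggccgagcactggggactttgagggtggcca
Fosl2: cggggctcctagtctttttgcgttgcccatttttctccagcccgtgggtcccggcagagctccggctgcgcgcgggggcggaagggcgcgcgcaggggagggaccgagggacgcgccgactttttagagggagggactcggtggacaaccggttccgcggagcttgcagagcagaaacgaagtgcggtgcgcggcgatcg
Jun: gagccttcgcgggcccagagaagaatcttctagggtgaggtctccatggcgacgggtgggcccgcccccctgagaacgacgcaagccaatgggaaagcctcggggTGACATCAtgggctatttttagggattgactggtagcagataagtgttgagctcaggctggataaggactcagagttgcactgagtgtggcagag
Fos: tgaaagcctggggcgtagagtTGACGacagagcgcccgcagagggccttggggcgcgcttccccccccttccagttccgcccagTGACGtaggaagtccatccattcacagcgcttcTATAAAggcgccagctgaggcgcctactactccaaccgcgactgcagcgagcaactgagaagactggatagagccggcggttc
Egr2: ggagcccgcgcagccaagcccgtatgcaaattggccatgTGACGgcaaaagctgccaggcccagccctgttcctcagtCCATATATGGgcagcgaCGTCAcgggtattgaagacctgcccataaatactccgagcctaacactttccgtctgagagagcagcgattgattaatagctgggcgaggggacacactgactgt

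RefSeq start regions were matched for 7 of the 10 genes, and not for Fosl1, Egr1 and Ier2. Over the whole listed window (250 bases before to 50 after the start, both strands), TGACG occurred in 4 of the 7 genes, Fos, Fosb, Junb and Egr2, against 23% of 27025 mouse genes. A gene was counted if any of its listed starts held the letters, and Egr2 has 5 listed starts, so it had more windows than a gene with 1. TATAAA occurred in Fos and Junb against 15.7% of genes. TGACATCA occurred in Jun alone against 4.18%, and the CArG box occurred in Egr2 alone against 1.81%. CCGGAA, the core of an ETS site, occurred in Egr2 alone against 16.7%. The full CREB site TGACGTCA (2.03% of genes, overlapping TGACG), the AP-1 site TGANTCA (8.97%) and the EGR site GCGTGGGCG (0.707%) occurred in none of the 7. The letters are a description of these windows only. TATAAA lay at bases -33 to -28 from the start in Fos, but at bases 1 to 6, at the RefSeq start itself, in Junb.

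Of the 10 genes, Junb, Fosl2 and Ier2 were higher in knockdown tumours, none was lower, and 7 did not pass the test. The 3 of 10 that rose compare with 19.6% of all genes, and the 0 that fell compare with 19.5%. Of the 10 log2 fold changes 7 were above 0 and 3 below, with a median of 0.30 against -0.01 over all genes. The groups did not overlap in 1 of the 10, Ier2, against 35.2% of all genes. Of the 3 below 0, 0 passed an unadjusted p under 0.05 in the edgeR test, and DESeq2 and limma-voom called 0 as lower. These counts are a description, and no test compares the 10 genes with all genes.

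**Figure D1:**
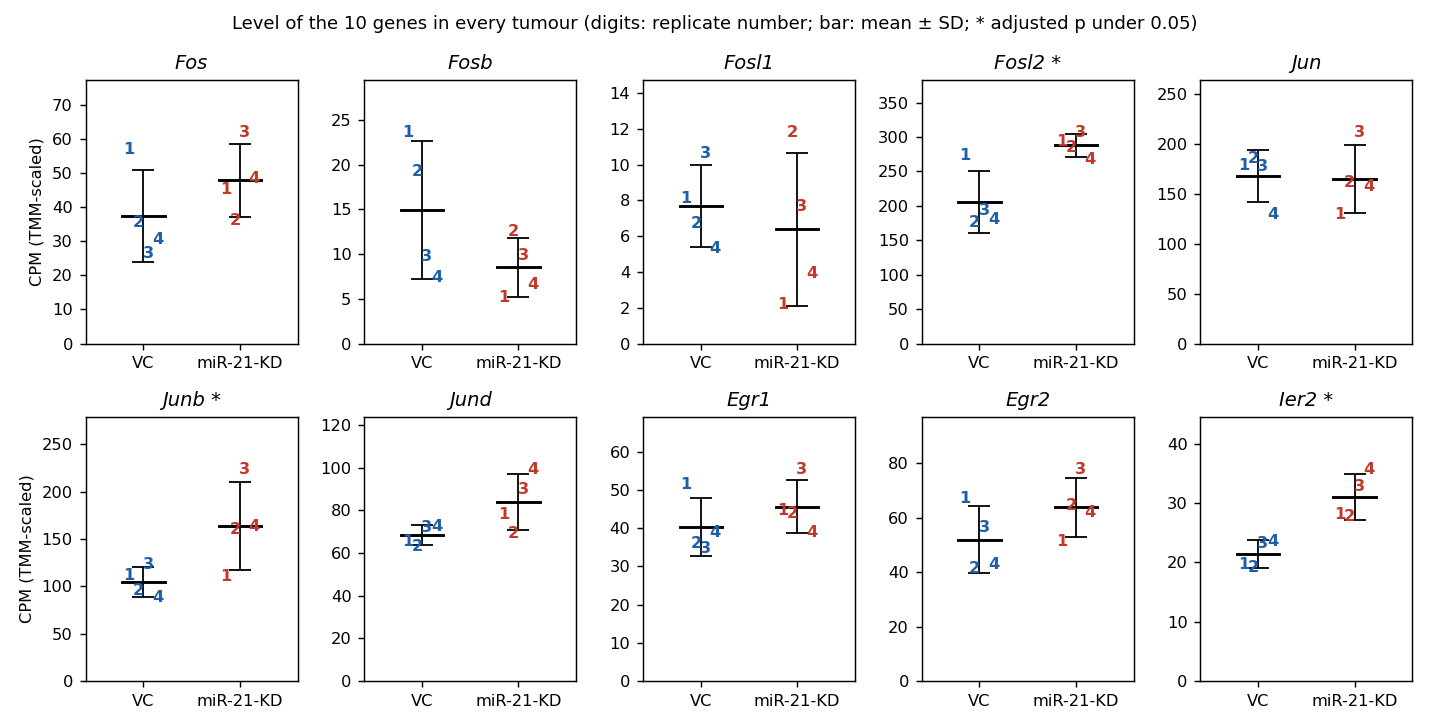
Level of each of the 10 genes in CPM (vertical axis, from 0) in the VC and miR-21-KD tumours, where each digit is the tumour with that replicate number and the bars are the mean and SD of 4 tumours. For Ier2 all 4 miR-21-KD tumours (27.7 to 35.6 CPM) lie above all 4 VC tumours (19.1 to 23.5 CPM), and for Fosl2 VC 1 lies among the miR-21-KD tumours.

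In the JUN family only Junb passed the test, and the differences between the genes of the family were not tested. Junb, an AP-1 subunit that is known to restrain JUN and to act in T cells and macrophages (gene 16477, chr8:84976909-84978748 on GRCm38.p6), rose, whereas Jun did not differ by more than the spread between tumours. Junb was at 111, 95.2, 123 and 88.4 CPM in VC 1 to 4 and at 110, 159, 223 and 163 CPM in miR-21-KD 1 to 4. miR-21-KD 2, 3 and 4 lay above every VC tumour, miR-21-KD 1 lay among them, and miR-21-KD 3 was the highest. The mean was 104 ± 15.5 CPM (SD, n = 4) in VC and 164 ± 46.3 CPM in knockdown tumours, a fold change of 1.57, with a log2 fold change of 0.65 (SE 0.20) and an adjusted p of 0.0347. The call held without miR-21-KD 1 or miR-21-KD 2. It was lost without VC 1 (adjusted p = 0.0577), VC 2 (0.0910), VC 3 (0.0540), VC 4 (0.0716), miR-21-KD 3 (0.0796, log2 fold change 0.47) or miR-21-KD 4 (0.0743), and it was lost with no filter on low counts (0.0507).

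Jun, the founding member of AP-1 and the target of the JNK kinases (gene 16476), was at 179, 186, 178 and 129 CPM in VC 1 to 4 and at 129, 161, 212 and 157 CPM in miR-21-KD 1 to 4. The groups overlapped over most of their range. The means were 168 ± 26.1 and 165 ± 34.4 CPM, with a log2 fold change of -0.03 (SE 0.17, adjusted p = 0.914), whose sign depended on the processing. Jund, the JUN gene that is expressed most steadily in resting cells (gene 16478), was at 65.3, 63.3, 72.0 and 72.5 CPM in VC and at 78.2, 68.9, 89.7 and 99.0 CPM in knockdown tumours. Only miR-21-KD 2 lay within the VC range. The means were 68.3 ± 4.68 and 84.0 ± 13.2 CPM (log2 fold change 0.30, SE 0.12), and the adjusted p was 0.0727 when tumours were not paired and 0.0287 with a replicate block.

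Within a tumour, the ratio of Junb to Jun reads needs no scaling between libraries. It was 0.621, 0.513, 0.690 and 0.684 in VC 1 to 4 and 0.850, 0.989, 1.05 and 1.04 in miR-21-KD 1 to 4. Every miR-21-KD tumour had a higher ratio than every VC tumour, including miR-21-KD 1, which had a Junb level like that of VC tumours and a Jun level close to the lowest of them. The ratio averaged 0.627 ± 0.0824 over VC and 0.982 ± 0.0920 over knockdown tumours, and no test was made of this ratio, which was chosen after the values were seen. Expressed per kilobase of exon, so that genes can be compared, Jun made up 33.1% to 42.4% of the JUN family level in VC and 27.5% to 31.4% in knockdown tumours. Junb made up 30.1% to 35.0% and 35.3% to 44.6%, and Jund 27.3% to 35.5% and 24.8% to 34.7%. The ranges of Jun and of Junb did not overlap between groups, those of Jund did. Being parts of a whole, the shares depend on each other and on the values behind the ratio, and they were not tested either. The size of a share depends on the gene length used, and with the RefSeq span of each gene the shares were 35.6% to 44.2% and 28.6% to 31.8% for Jun, 39.2% to 45.2% and 46.9% to 55.4% for Junb, and 16.3% to 22.2% and 14.3% to 21.3% for Jund, with the same pattern of overlap.

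**Figure D2:**
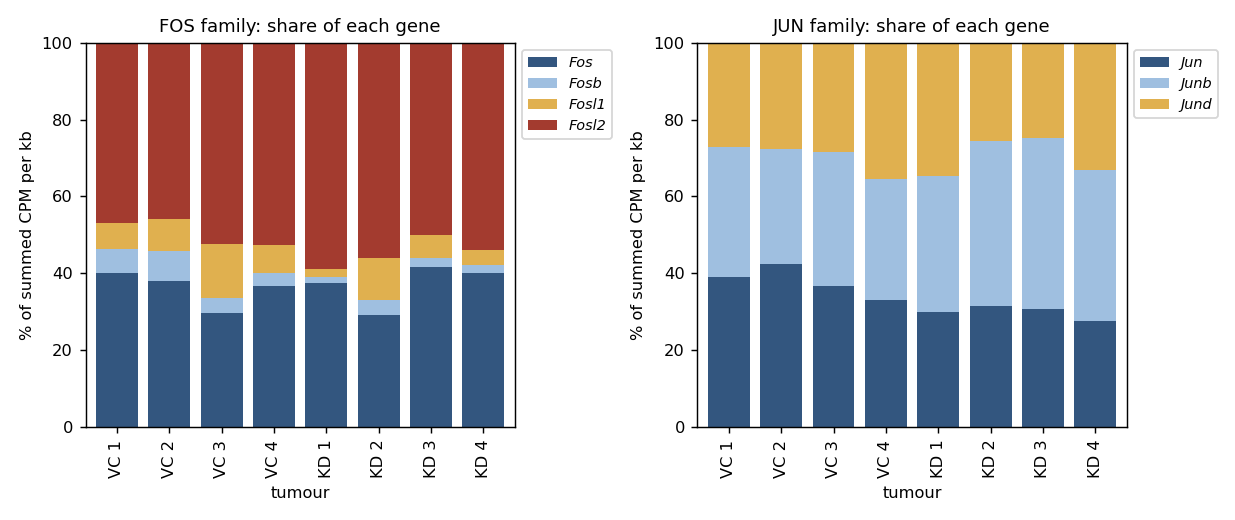
Share of each gene in the summed CPM per kilobase of exon (vertical axis, %) of the FOS family (left) and the JUN family (right), 1 bar per tumour. The Junb share is 30.1% to 35.0% in VC and 35.3% to 44.6% in miR-21-KD (KD) tumours with the exon lengths used here, and higher in both groups (39.2% to 45.2% and 46.9% to 55.4%) with RefSeq spans. Fosl2 is the largest part of the FOS family in every tumour.

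In the FOS family Fosl2 rose and the other three did not pass the test. Fosl2, whose product lacks the strong activation domain of FOS and which is known in bone, skin and fibrotic tissue (gene 14284, chr5:32136472-32157840), was at 273, 177, 193 and 180 CPM in VC 1 to 4 and at 293, 284, 307 and 268 CPM in miR-21-KD 1 to 4. The 4 values of the knockdown group lay close together and above VC 2 to 4, while VC 1 lay just above miR-21-KD 4. The means were 206 ± 45.6 and 288 ± 16.3 CPM, a fold change of 1.40, with a log2 fold change of 0.48 (SE 0.15) and an adjusted p of 0.0303. Without VC 1 the log2 fold change was 0.65 (adjusted p = 0.00573). The call was lost without VC 2 (adjusted p = 0.0878), VC 3 (0.0872), VC 4 (0.0638), miR-21-KD 1 (0.0635), miR-21-KD 3 (0.0755) or miR-21-KD 4 (0.05535), and held without miR-21-KD 2.

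Fos, the archetypal immediate early gene (gene 14281), was at 56.8, 35.4, 26.4 and 30.6 CPM in VC 1 to 4 and at 45.3, 36.0, 61.8 and 48.3 CPM in miR-21-KD 1 to 4. VC 2 to 4 lay below all 4 miR-21-KD tumours and VC 1 lay above 3 of them. The means were 37.3 ± 13.5 and 47.9 ± 10.7 CPM, and the log2 fold change of 0.36 (SE 0.25) did not pass (adjusted p = 0.279). Without VC 1 it was 0.64 (SE 0.20) and passed (adjusted p = 0.0389). Fosb, which like FOS carries a strong activation domain (gene 14282), was at 23.6, 19.2, 9.69 and 7.36 CPM in VC and at 5.17, 12.5, 9.90 and 6.58 CPM in knockdown tumours. VC 1 and VC 2 lay above every other tumour and VC 3 and VC 4 lay among the miR-21-KD tumours, so that the log2 fold change of -0.81 had an SE of 0.42 (adjusted p = 0.147). Leaving out 1 tumour gave values of -1.058 to -0.502, none of which passed. Fosl1, a FOS gene associated with invasive carcinoma cells (gene 14283), was at 8.11, 6.70, 10.6 and 5.31 CPM in VC and at 2.18, 11.8, 7.63 and 3.91 CPM in knockdown tumours. The highest and the lowest of the 8 values were both in the miR-21-KD group. The log2 fold change was -0.27 (SE 0.47, adjusted p = 0.672), and without miR-21-KD 1 it was 0.02.

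Neither EGR gene passed the test. Egr1, which is induced by nearly every growth signal (gene 13653), was at 51.4, 35.9, 34.8 and 39.0 CPM in VC and at 44.7, 43.9, 55.3 and 38.8 CPM in knockdown tumours, with a log2 fold change of 0.18 (SE 0.15, adjusted p = 0.370). With 1 tumour left out this value ranged from 0.075 to 0.322 and never passed. Egr2 (gene 13654) was at 67.2, 41.5, 56.4 and 42.9 CPM in VC and at 51.2, 64.6, 77.6 and 61.8 CPM in knockdown tumours, with a log2 fold change of 0.30 (SE 0.18, adjusted p = 0.219). Its range with 1 tumour left out was 0.186 to 0.445, also without a call. In both genes VC 1 was the highest VC tumour and miR-21-KD 3 the highest of all, and the groups overlapped.

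Ier2, a small nuclear protein gene of the immediate early class that does not encode a bZIP or zinc finger factor (gene 15936, chr8:84661331-84662852), rose. It was at 19.7, 19.1, 23.3 and 23.5 CPM in VC 1 to 4 and at 28.1, 27.7, 32.8 and 35.6 CPM in miR-21-KD 1 to 4. Every knockdown tumour exceeded every VC tumour. The mean rose from 21.4 ± 2.34 to 31.1 ± 3.82 CPM, a fold change of 1.45, with a log2 fold change of 0.54 (SE 0.13) and an adjusted p of 0.0135. The call held when any 1 of the 8 tumours was left out, with log2 fold changes of 0.47 to 0.58 and adjusted p of 0.00855 to 0.0434.

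**Figure D3:**
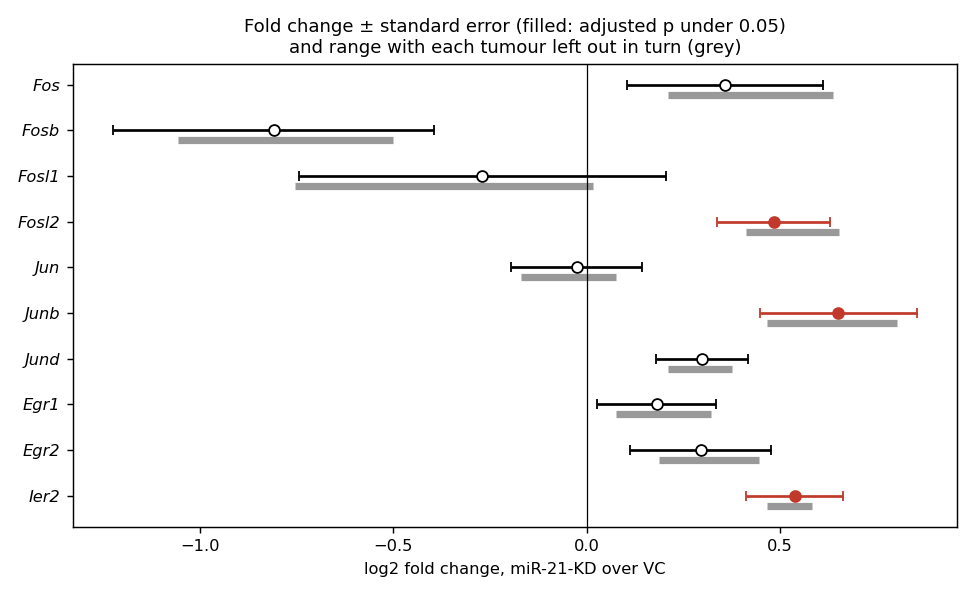
Log2 fold change of miR-21-KD over VC tumours (horizontal axis) for the 10 genes, with points and bars for the estimate ± SE, filled red where the adjusted p was under 0.05, and grey bars for the range when each tumour was left out in turn. The grey bars of Jun and Fosl1 cross 0, and that of Junb runs from 0.47 to 0.80.

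VC 1 was the highest VC tumour for Fos, Fosb, Fosl2, Egr1 and Egr2, 5 of the 10 genes. The same tumour had the highest sums of fibroblast (9261 CPM), adipocyte (281 CPM) and neutrophil (910 CPM) markers among VC tumours. Its macrophage sum (5873 CPM) was close to that of VC 4 (5798 CPM), which had the higher mean log2 CPM over that list (8.17 against 7.82), and the part of these cells was not tested. Genes of the heat shock response, which with Fos and Jun are induced by warming and handling of tissue, summed to 1235 to 1417 CPM in VC and 824 to 1242 CPM in knockdown tumours. Of these 12 genes 1 rose and 3 fell (8.33% and 25.0%, against 19.6% and 19.5% of all genes), with a median log2 fold change of -0.33, and Bag3 was also called lower with the replicate block. The gene that rose was Atf3, which is also in the list of bZIP partners. Those that fell were Hspa8, Hspd1 and Hspe1, and Hspa8 (440 CPM) and Hspd1 (290 CPM) had the highest VC means of the list. Of the 12 genes 4 were above 0, among them Hspa1a (0.63, SE 0.27) and Hspa1b (0.38, SE 0.29), which did not pass. VC 1 had the highest sum of all tumours (1417 CPM). The mean log2 CPM over the list was highest in miR-21-KD 3 (6.027), followed by VC 1 (6.005).

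Levels differed widely between members. Per kilobase of exon, the mean levels in VC tumours ran from Jun (52.7 CPM per kilobase), Junb (45.3) and Jund (40.9) through Fosl2 (21.2), Fos (15.9), Egr2 (15.3), Ier2 (14.1) and Egr1 (8.98) to Fosl1 (3.78) and Fosb (2.40). In miR-21-KD tumours Junb came first (71.2 CPM per kilobase), before Jun (51.7), Jund (50.3), Fosl2 (29.7), Ier2 (20.4), Fos (20.3), Egr2 (18.8), Egr1 (10.2), Fosl1 (3.14) and Fosb (1.37). The ranges of the 3 JUN genes overlapped in both groups, as did those of Fos, Egr2 and Ier2. Fosl2 (27.6 to 31.7 CPM per kilobase) stood clear of Fos (15.3 to 26.3) in knockdown tumours but not in VC tumours (18.2 to 28.2 against 11.2 to 24.1). The place of the JUN genes depends on the gene length used: with the RefSeq span of these genes Jund was at 23.7 and Junb at 56.7 CPM per kilobase in VC tumours. As a share of the FOS family, Fosl2 made up 46.0% to 52.6% in VC and 50.02% to 58.9% in knockdown tumours, Fos 29.6% to 40.1% and 29.2% to 41.5%, Fosl1 6.63% to 13.8% and 2.09% to 11.1%, and Fosb 3.33% to 7.76% and 1.61% to 3.82%. These 4 ranges overlapped between groups.

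After the mean of each group was taken away, some members varied together over the 8 tumours. The highest Pearson correlations of log2 CPM were 0.92 between Jund and Ier2, 0.86 between Jun and Junb, 0.85 between Fosl2 and Egr1, 0.82 between Junb and Egr2 and 0.81 between Fos and Egr1, and the lowest was -0.59 between Fosb and Ier2. The points share their libraries and the cell makeup of the tumours, and the values are a description. Ranked over all other tested genes, with only 8 points each and no chance level computed, those most like Fos by this measure were Ascl2 (0.98), Slit1 (0.98), Slc39a12 (0.96), Tmem87b (0.96) and Samd8 (0.96), and those most like Fosl1 were Eif3e (0.99), Rpl21 (0.99), Igf2bp2 (0.99), Rara (0.99) and Psat1 (0.99). Rpl21 has near-identical copies in the genome, and its count is uncertain.

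Among the other immediate early genes, many rose. Of 36 listed, Egr4 had 0 reads in all 8 tumours and was not tested, 19 of the other 35 rose (54.3%, against 19.6% of all genes), none fell, and the median log2 fold change was 0.48. None was lower at an unadjusted p under 0.05 in the edgeR test, or called lower by DESeq2 or limma-voom. Leaving out 1 tumour gave 13 to 19 genes that rose, and 1 that fell without VC 4. The list was chosen with earlier results of these data known, and no test compares it with the members. Cebpd, a bZIP factor of the acute phase response, was at 13.7, 6.78, 9.62 and 12.9 CPM in VC 1 to 4 and at 29.7, 24.1, 32.2 and 30.3 CPM in miR-21-KD 1 to 4 (log2 fold change 1.43, SE 0.22, adjusted p = 0.00571). Every miR-21-KD value was well above every VC value. Ccn2, a matricellular protein gene induced by TGF-beta and YAP, had means of 72.1 ± 17.7 and 166 ± 18.3 CPM (log2 fold change 1.21, SE 0.17). Zfp36, which encodes a protein that destabilises cytokine mRNAs and those of several immediate early genes, had means of 84.1 ± 19.4 and 161 ± 10.8 CPM (0.94, SE 0.16). Homer1, a scaffold gene of synapses, had means of 11.1 ± 2.10 and 20.3 ± 2.23 CPM (0.86, SE 0.16).

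Some genes of that list did not pass, of which 3 with values below 0 are named here after their values were seen. Of the 35 tested genes 28 were above 0 and 19 of these rose, so genes that did not pass lay on both sides of 0. Egr3, of the EGR family, had a log2 fold change of -0.31 (SE 0.35), and the growth factor induced nuclear receptor Nr4a1 one of -0.11 (SE 0.18). Myc, a growth regulator that is itself induced early, had one of -0.15 (SE 0.20). The genes of largest fold change in the list, Nr4a3 (1.91, SE 0.42) and Arc (1.84, SE 0.41), rose from means of 0.980 and 1.23 CPM, so they rest on few reads.

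**Figure D4:**
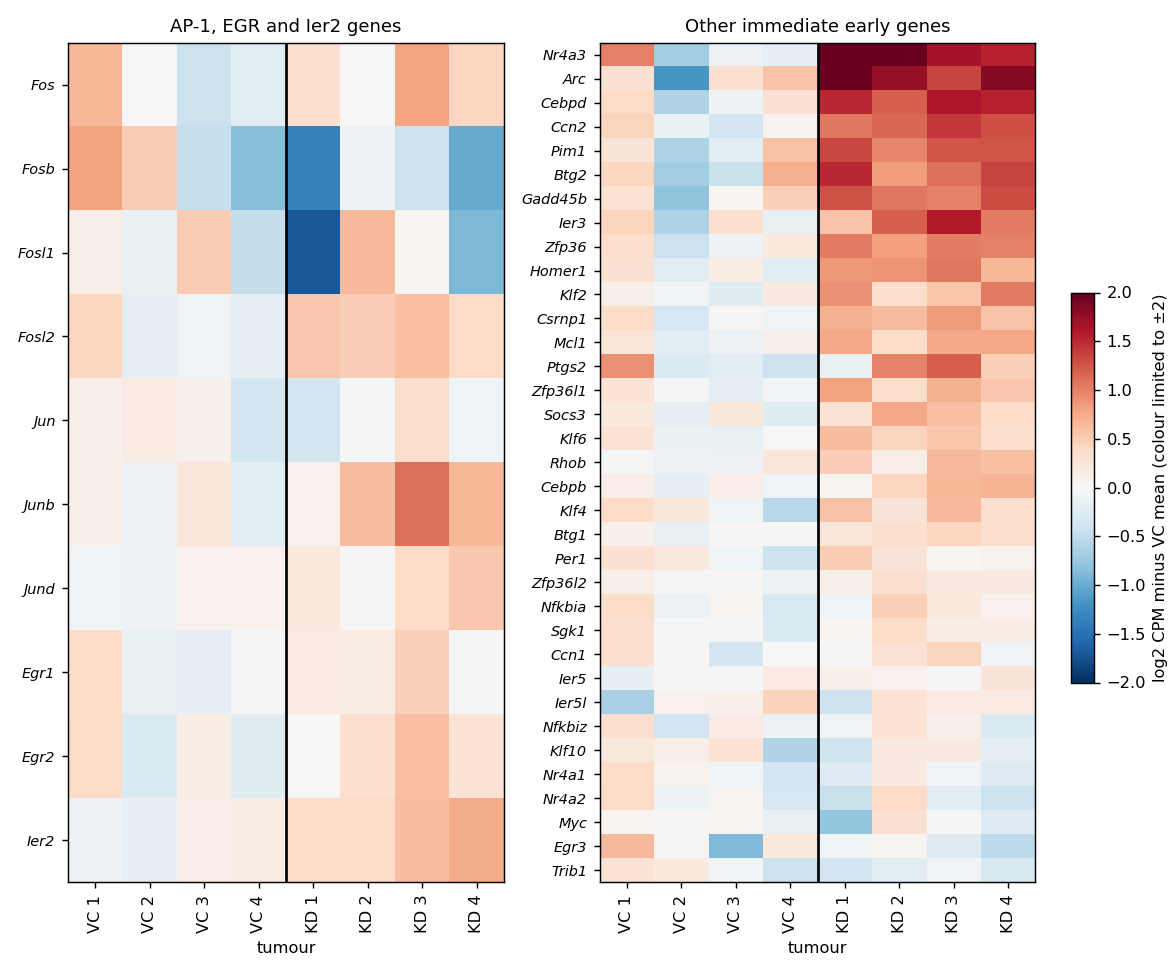
Log2 CPM minus the VC mean in each VC and miR-21-KD (KD) tumour for the 10 genes (left) and the other 35 tested immediate early genes (right, ordered by the mean of the KD tumours), with the colour limited to ±2. On the right 19 genes rose and none fell, while on the left Fosb and Fosl1 are lowest in KD 1.

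Of 16 genes of the ERK pathway 3 rose and 1 fell (18.8% and 6.25%, against 19.6% and 19.5% of all genes), with a median log2 fold change of -0.05. With the replicate block 2 fell, Ksr1 being added. The number that fell was also 2 with DESeq2, without VC 1 and without miR-21-KD 2, and 4 with quality weights. Braf, the kinase that activates MEK, had means of 38.6 ± 8.88 and 65.0 ± 6.41 CPM (log2 fold change 0.75, SE 0.16, adjusted p = 0.0102), and every knockdown tumour exceeded every VC tumour. Rps6ka1 (0.37, SE 0.08), a kinase downstream of ERK, and Hras (0.36, SE 0.11) also rose, and Rps6ka2 (-0.53, SE 0.15), a relative of Rps6ka1, fell. The call of Hras was lost without VC 1, VC 3, miR-21-KD 1, miR-21-KD 3 or miR-21-KD 4 (adjusted p of 0.0563 to 0.0724) and with no filter on low counts (0.0582), and that of Rps6ka2 without VC 2, VC 3, miR-21-KD 3 or miR-21-KD 4 (0.0668 to 0.0796). Of 15 tested genes of the JNK and p38 pathways none rose and 2 fell (0% and 13.3%, against 19.6% and 19.5% of all genes). These were Map3k5, the stress kinase ASK1 (means 92.8 ± 9.04 and 45.1 ± 10.4 CPM, log2 fold change -1.04, SE 0.16), and Mapk12, a p38 kinase (-0.89, SE 0.16), and the median of the list was 0.03. Of this list 3 genes (Map2k7, Map3k1 and Mapk14) were higher at an unadjusted p under 0.05, and DESeq2 and limma-voom with quality weights called all 3 of them, while limma-voom alone called 0. Upper-quartile scaling and a minimum of 10 counts per tumour each called 2 as higher. Without miR-21-KD 2, and with quality weights, 4 genes of the list fell.

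Among 14 nuclear factors that act on immediate early promoters, 2 rose and 3 fell (14.3% and 21.4%, against 19.6% and 19.5% of all genes), with a median of 0.04. Crem, a CREB relative whose short forms repress CREB sites, rose by 0.85 (SE 0.14) on the log2 scale, and Mrtfa, a cofactor of SRF, by 0.34 (SE 0.07). Of the 3 ETS factors that accompany SRF, Elk1 and Elk3 fell, Elk1 with a log2 fold change of -0.47 (SE 0.10) and Elk3 with -0.84 (SE 0.19), while Elk4 was at 0.09 (SE 0.21, adjusted p = 0.766). The CREB coactivator gene Crtc1 also fell (-0.47, SE 0.12), and its call was lost without VC 2 (adjusted p = 0.0527). With the replicate block 4 rather than 2 of the 14 rose, Crebbp and Ep300 being added. Of 13 tested bZIP partners of AP-1, 6 rose (46.2%, against 19.6% of all genes) and none fell, with a median of 0.37. Among them were Maf (0.77, SE 0.16), known in macrophages and T cells, Batf (1.01, SE 0.20) and Batf3, partners of JUN proteins in lymphocytes and dendritic cells, Jdp2 (0.58, SE 0.09), a repressor that pairs with JUN, and Atf3, a stress-induced repressor. Atf2, a partner of JUN, was the 1 gene of this list that was lower at an unadjusted p under 0.05 (log2 fold change -0.39, SE 0.14), and DESeq2, limma-voom and the replicate block called it. Maf had means of 187 ± 26.5 and 319 ± 61.0 CPM. The macrophage marker sums given above moved in the same direction, and their part in these values was not tested.

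Of 19 genes that damp MAP kinase or EGR signalling, 2 rose and 4 fell (10.5% and 21.1%, against 19.6% and 19.5% of all genes), with a median of -0.24. With the replicate block 7 fell, Dusp6, Dusp10 and Spred3 being added. Spry1, an inhibitor of RAS to ERK signalling that has been described as a target of miR-21, was at 23.0, 65.1, 28.5 and 66.3 CPM in VC 1 to 4 and at 8.81, 12.5, 12.9 and 12.3 CPM in miR-21-KD 1 to 4 (log2 fold change -1.97, SE 0.36, adjusted p = 0.00759). No knockdown tumour reached the lowest VC tumour, and VC 1 and VC 3 were lower than the other VC tumours. Spred2 (-0.73, SE 0.14), Spry4 (-0.90, SE 0.21) and the phosphatase gene Dusp14 (-1.21, SE 0.33) also fell. The phosphatase gene Dusp1, an immediate early gene itself, was at 57.6, 31.3, 35.6 and 33.8 CPM in VC and 60.1, 55.0, 69.2 and 53.2 CPM in knockdown tumours, and rose by 0.59 (SE 0.20) on the log2 scale. VC 1 again lay among the miR-21-KD tumours. Dusp16, a phosphatase for JNK and p38, rose by 0.29 (SE 0.10). Both of these calls were lost without VC 2, VC 3, VC 4, miR-21-KD 1, miR-21-KD 3 or miR-21-KD 4 (adjusted p of 0.0716 to 0.128 for Dusp16 and 0.0691 to 0.112 for Dusp1), and that of Dusp1 also without miR-21-KD 2 (0.05007). With no filter on low counts the calls of Dusp1 (0.0568) and Dusp16 (0.0871) were lost, and that of Dusp16 also with scaling by library size (0.0567) and with limma-voom (0.0523). The call of Dusp14 was lost without VC 2 (0.0580), VC 3 (0.05008) or miR-21-KD 4 (0.0578). The number of genes of the list that fell was 8 without miR-21-KD 2 and with quality weights, 6 with DESeq2 and 5 with limma-voom. Pdcd4, which was not in the lists and is named because it is described both as a target of miR-21 and as an inhibitor of AP-1 activity, had means of 26.3 ± 4.74 and 53.3 ± 10.6 CPM, with no overlap (log2 fold change 1.02, SE 0.18, adjusted p = 0.00675).

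Reported targets of AP-1 moved in both directions. Of 24, 10 rose and 4 fell (41.7% and 16.7%, against 19.6% and 19.5% of all genes), with a median of 0.62. With the replicate block 12 rose, Il11 and Ereg being added. The proteases Mmp13 (2.12, SE 0.33), Mmp9 (1.76, SE 0.23) and Plau (0.99, SE 0.15) and the receptor gene Plaur (0.63, SE 0.10) rose. Mmp13 was at 193 to 634 CPM in VC and 1774 to 2126 CPM in knockdown tumours, and Mmp9 at 539 to 702 CPM and 1225 to 2707 CPM. The cell cycle gene Ccnd1 (-1.58, SE 0.48), the chromatin gene Hmga2 (-1.51, SE 0.43), the protease gene Mmp3 (-0.73, SE 0.23) and the chemokine gene Ccl2 (-0.66, SE 0.13) fell. Ccnd1 was at 1294, 1905, 1877 and 1225 CPM in VC and at 184, 1082, 471 and 367 CPM in knockdown tumours, with miR-21-KD 2 nearest to the VC group. The calls of Ccnd1 and Hmga2 were lost without VC 2, VC 3, miR-21-KD 3 or miR-21-KD 4 (adjusted p of 0.0546 to 0.0836), and that of Mmp3 without VC 1, VC 3, miR-21-KD 3 or miR-21-KD 4 (0.0701 to 0.0869). Of the whole list, 5 rose and 2 fell without VC 2, 4 and 1 without VC 3, 6 and 1 without miR-21-KD 3, and 5 and 1 without miR-21-KD 4. On the first principal component of all genes (67.5% of the variance) miR-21-KD 2 also lay nearest to the VC tumours. Mmp9, Plau, Plaur and Ccl2 are also expressed by macrophages, and Mmp13 and Mmp3 by fibroblasts. The marker sums of both cell types, given above, were higher in knockdown tumours, whereas Ccl2 and Mmp3 fell. The part of these cells was not tested.

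**Figure D5:**
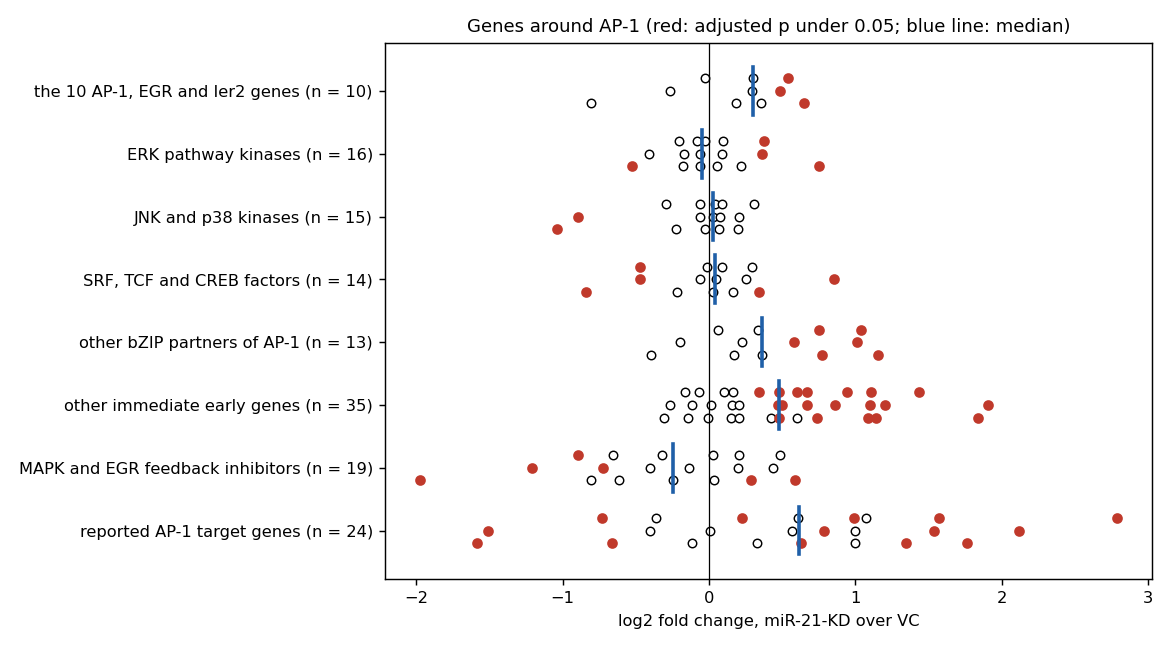
Log2 fold change of miR-21-KD over VC tumours (horizontal axis) of every tested gene in the lists around AP-1 (rows, with the number tested), filled red where the adjusted p was under 0.05, with the median as a blue line. The medians run from -0.24 (feedback inhibitors) to 0.62 (reported AP-1 targets), and that of the 10 genes is 0.30.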

How the data were processed

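Total RNA of 8 whole tumours (4 VC, 4 miR-21-KD) was sequenced. The values the authors deposited are counts, the number of reads on each gene (Entrez identifier), and they carry no normalization. The submitters' processing notes name mm10, Subread, featureCounts, edgeR and limma. Their versions and whether counting used strand are not given in the sources used here. Every column of the table was used, and totals per tumour were 12134849 to 13592695 reads. The numbers of the replicates come from the labels, and the study calls the tumours biological replicates. No pair of tumours of a group agreed within sampling noise (chi-square per degree of freedom 12.6 to 70.7).

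Symbols were taken from RefSeq for GRCm38.p6, which matched 25275 of the 27179 identifiers, as were promoters and the miRNA. Exon lengths were unions of GENCODE vM21 exons on GRCm38. For the test, edgeR 4.0.16 (R 4.3.3) was used, and filterByExpr (minimum count 10, minimum total 15) kept 14382 genes and removed 12797. Libraries were scaled by TMM, the robust quasi-likelihood test compared the groups, and p-values were adjusted by Benjamini-Hochberg over all tested genes with a threshold of 0.05. The SE of a log2 fold change is the estimate over the root of F. TMM factors scaled the library sizes behind CPM, and log2 CPM had a prior count of 2. The scripts were tested on simulated counts before use.

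The members and lists were chosen with earlier results of these data known. The genes named are the 10 members, up to 4 called genes in each direction per list by smallest adjusted p, and the 5 genes most correlated with Fos and with Fosl1, and others are said to be chosen after their values were seen. Beyond these, the remaining called bZIP partners (Batf3, Atf3), genes called only by other fits and Pdcd4 are named outside this rule. The result of 1 gene under this rule is not reported here. Alternatives were DESeq2 1.42.0, scaling by library size or upper quartile, no low count filter, a minimum of 10 counts per tumour, limma-voom (limma 3.58.1), the same with quality weights, a replicate block, each tumour left out in turn and an adjusted p under 0.01. After the group means were removed, tumours of the same number correlated at 0.272, 0.421, 0.175 and 0.376, all above 0.1, and the 12 other combinations at -0.393 to 0.393, of which 4 were above 0.1. No source names a pairing, and the main test is unpaired. For the members, the lists around AP-1 and the marker lists the genes whose call the block changed are named.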

Additional observations from a re-analysis of the deposited data

Results flagged for a closer look

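Of 20 groups of 4 values examined (10 genes in 2 groups), 2 held a tumour far from the other three, by a test on the gap over the range, which flags about 1 in 20 groups by chance. Fosl2 was at 273 CPM in VC 1, where the gap to the next VC tumour was 0.833 of the range of the group. Jun was at 129 CPM in VC 4, where the gap was 0.860 of the range. VC 4 was also the VC tumour with the highest B cell (166 CPM) and T cell (434 CPM) marker sums, and the part of these cells was not tested. Without VC 1 the log2 fold change of Fosl2 was 0.65, and without VC 4 that of Jun was -0.14 (adjusted p = 0.498).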

How the results depend on the processing

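The sign of each log2 fold change held under every alternative for 8 of the 10 genes. That of Jun (-0.03) turned to 0.016 with upper-quartile scaling, 0.025 with a minimum of 10 counts per tumour and 0.033 with quality weights, and ranged from -0.171 to 0.075 with 1 tumour left out. That of Fosl1 (-0.27) ranged from -0.754 to 0.016. The call of Junb was lost with no low count filter (0.62, adjusted p = 0.0507), and with 1 tumour left out its value was 0.47 to 0.80, while that of Fosl2 was 0.41 to 0.65, each called in 2 of 8 such fits. Ier2 kept its call in every fit at the 0.05 threshold. Jund passed with DESeq2 (0.32, adjusted p = 0.0470), with at least 10 counts (0.35, 0.0472), with quality weights (0.37, 0.0101) and with the replicate block (0.29, 0.0287). With 1 tumour left out Jund ranged from 0.21 to 0.38 and passed only without miR-21-KD 2 (0.38, 0.0183). Fos passed with quality weights (0.69, 0.0249) and ranged from 0.21 to 0.64. The replicate block changed no other call of a member.

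With 1 tumour left out, 1 to 4 members, 2936 to 6840 of all genes, and 37 to 63 genes of the pathway lists (56 with all tumours) were called, and 13 to 19 other immediate early genes rose and 0 to 1 fell (1 without VC 4). The lowest number of all genes came without VC 3. Quality weights called 5 members. At an adjusted p under 0.01, 0 members, 1426 genes, 19 genes of the lists and 4 other immediate early genes passed. Of the 33 named genes that are no members, 30 kept their call at the 0.05 threshold in every other fit on all 8 tumours and 9 lost it without at least 1 tumour, and none changed sign. With 4 tumours a group, differences within the spread given for a gene were not detectable, and Fosl1 and Fosb rest on the fewest reads of the members. The causes of these changes were not tested.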
